A study of Phaseolus vulgaris with 6 samples.

Results

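NRAMP (natural resistance-associated macrophage protein) genes were followed in the pod transcriptome of navy bean, a market class of common bean (Phaseolus vulgaris). The family was taken as 7 gene identifiers of the v1.0 bean genome, and all 7 were found among the 19598 genes of the deposited table. No further gene of the table was annotated as NRAMP or EIN2, and NRAMP genes of bean outside these rows were not analysed here, so sums and pairs below cover the listed genes only. By homology to A. thaliana, 5 genes were annotated as metal carriers (NRAMP2, NRAMP3 or NRAMP6) and 2 as EIN2 (ETHYLENE INSENSITIVE 2).

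Developing pods of Voyager, labelled as having a normal zinc concentration, were compared with pods of Albion, labelled as having a low zinc concentration. Both cultivars were grown at a sufficient zinc supply, so the zinc labels were read as properties of the genotypes. Each genotype had 3 samples, each made from 2 ground pods, and the labels give an age of 20 days after anthesis, while the methods of the study give an earlier one. A whole pod holds both the pod wall and young seeds, and in such bulk tissue fewer cells of a type and less RNA per cell cannot be told apart. Expression was given by the authors in FPKM (sequenced fragments of a gene, scaled to its transcript length and to the number of mapped reads), as 1 value per gene and genotype combined over the 3 samples. The values therefore carried no replicate error, no difference between the genotypes was tested, and every comparison here is a description. Read counts are not given, so the depth behind each FPKM value is unknown.

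NRAMP carriers are membrane proteins that move divalent metals such as iron, manganese and zinc together with protons. In A. thaliana, NRAMP3 exports stored iron and manganese from the vacuole, which matters for seedlings that live on seed reserves, NRAMP2 acts in manganese supply within the endomembrane system, and NRAMP6 is an intracellular carrier linked to the cadmium response. EIN2 has an NRAMP-like membrane domain at its amino end but is known as the central relay of ethylene signalling at the endoplasmic reticulum, whose carboxyl end is released to act on the ethylene response. It is not known as a metal carrier.

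The family covered a wide range of levels and kept the same order in both genotypes. The most abundant member was an NRAMP3-like gene, the EIN2-like genes came next, and an NRAMP6-like gene had the lowest level, above 1.10% of listed genes in Voyager and 17.4% in Albion. These shares hold for the listed genes, of which 5.38% were under 1 FPKM in Voyager. The paper reports more detected genes than are listed. At least 10 FPKM in both genotypes was reached by 6 of the 7 genes. The exception was the NRAMP6-like gene on chromosome 10, the only member that differed by 2-fold or more between the genotypes, with the lower value in Voyager.

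**Figure D1:**
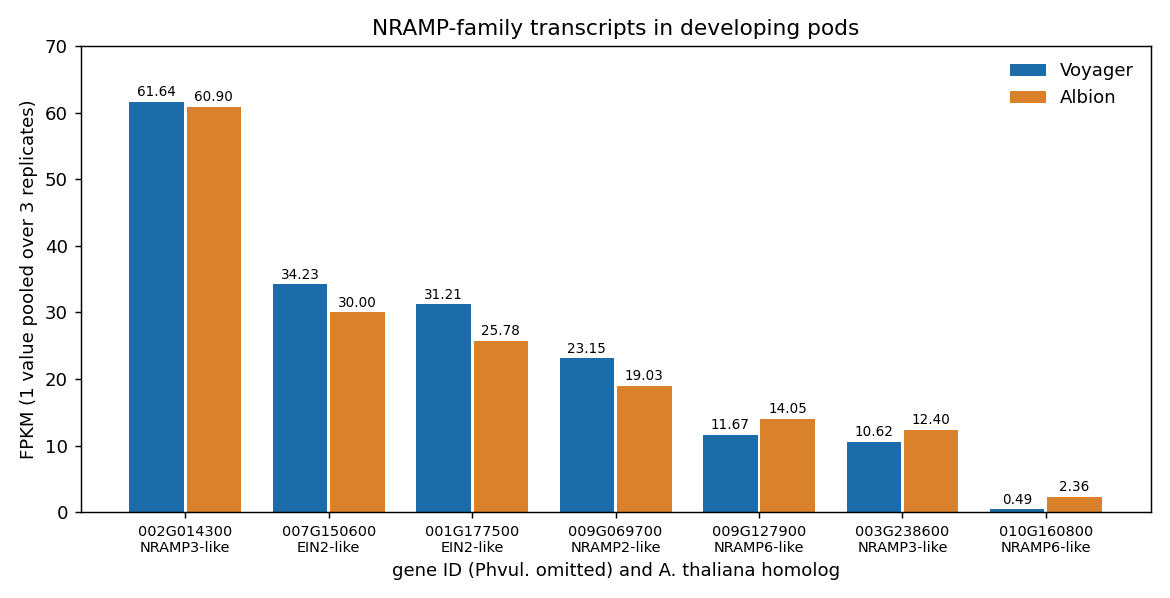
FPKM of the 7 NRAMP-family genes in developing pods, with Voyager (blue) left of Albion (orange); each bar is 1 value combined over 3 samples, so there is no error bar. Genes are ordered by level, from the NRAMP3-like gene at 61.64 and 60.90 FPKM to the NRAMP6-like gene at 0.49 and 2.36 FPKM, and the order is the same in both genotypes.

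Among the vacuolar exporters, the NRAMP3-like gene Phvul.002G014300 lies on chromosome 2 from 1609575 to 1613213. It had 61.64 FPKM in Voyager and 60.90 FPKM in Albion. This level exceeded that of 87.7% of listed genes in Voyager and 87.9% in Albion. On the log2(FPKM + 1) scale, which is used for all differences below and runs as Voyager minus Albion, the difference was 0.02. It was the smallest difference of the 7 genes. The other NRAMP3-like gene, Phvul.003G238600 on chromosome 3 from 46129963 to 46133923, had 10.62 FPKM in Voyager and 12.40 FPKM in Albion, a difference of -0.21. These values lay close to the middle of the listed genes, above 46.9% of listed genes in Voyager and 52.9% in Albion. The pair was thus unequal within each genotype, with Phvul.002G014300 at 5.80 times the FPKM of Phvul.003G238600 in Voyager and 4.91 times in Albion. Added together, the NRAMP3-like genes had 72.26 FPKM in Voyager and 73.30 FPKM in Albion.

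The single listed NRAMP2-like gene, Phvul.009G069700, lies on chromosome 9 from 11751007 to 11755078. Its level was 23.15 FPKM in Voyager and 19.03 FPKM in Albion, and the difference of 0.27 was the largest in the direction of Voyager among the 7 genes. An absolute difference larger than this was nevertheless found in 33.0% of all listed genes, and in 26.0% of those with a mean of at least 10 FPKM.

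The member that differed most between the genotypes was one of the listed NRAMP6-like genes. Of these, Phvul.009G127900 lies on the same chromosome as the NRAMP2-like gene, from 18914511 to 18918881, with 464 listed genes between them. It had 11.67 FPKM in Voyager and 14.05 FPKM in Albion, a difference of -0.25. Its partner Phvul.010G160800, on chromosome 10 from 42893083 to 42898506, had 0.49 FPKM in Voyager and 2.36 FPKM in Albion. The difference was -1.17, a 2.26-fold lower level in Voyager once 1 FPKM is added to each value, and the plain ratio of Albion over Voyager FPKM was 4.82. With 0.1 FPKM added instead the difference was -2.06, and with 5 FPKM added it was -0.42 and no longer reached 2-fold. Rounding of the deposited values could move the difference only between -1.18 and -1.17. Phvul.009G127900 exceeded its partner 23.8 times in Voyager and 5.95 times in Albion, and made up 96.0% of their summed FPKM in Voyager and 85.6% in Albion.

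A difference of 2-fold or more was thus found in 1 of the 7 genes. Among all listed genes 4.31% differed by as much, 845 of 19598, with 2.55% higher and 1.76% lower in Voyager. Where the other 6 members lie, at means from 10 FPKM upwards, the share was 2.79%. Of the 845 genes, 500 were higher and 345 lower in Voyager, against 404 higher and 502 lower when FPKM was scaled to the same sum in each genotype. Among the 1702 genes with a mean of 1 to under 2 FPKM, where Phvul.010G160800 lies, 7.17% differed by 2-fold or more and 2.59% were lower in Voyager by that much. A share of 1 in 7 genes rests on a single gene of low level, and nothing about the family was read from it.

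**Figure D2:**
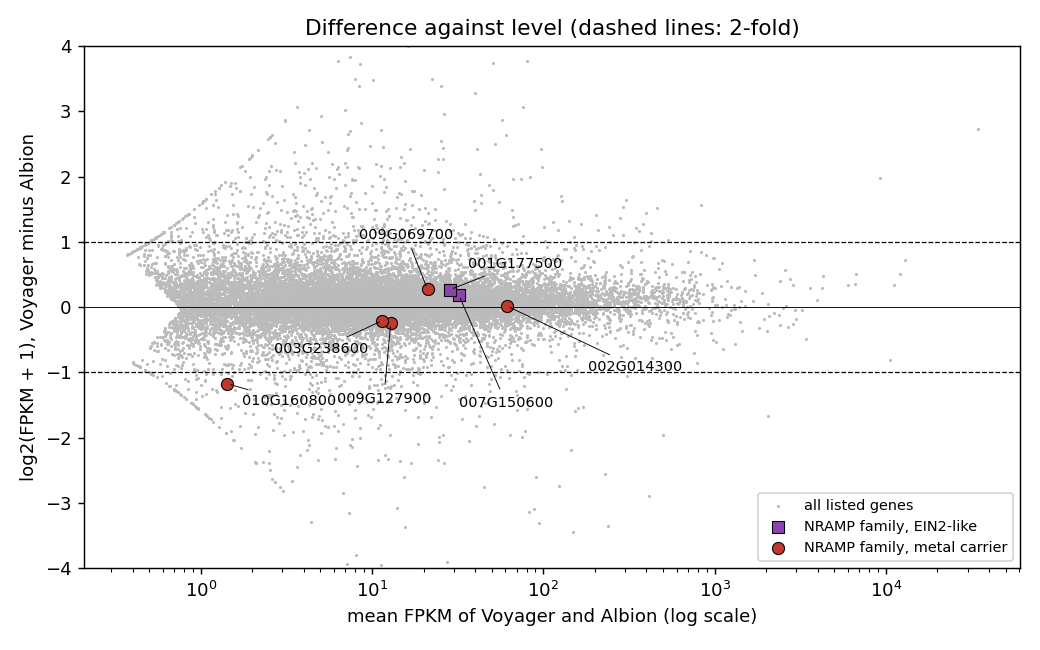
Difference in log2(FPKM + 1), Voyager minus Albion, against the mean FPKM of the genotypes on a log scale, for all listed genes (grey), the 5 metal carriers (red circles) and the 2 EIN2-like genes (purple squares); 22 genes lie beyond the vertical axis. Only Phvul.010G160800, at -1.17, lies outside the dashed lines at 2-fold, and the other members lie between -0.25 and 0.27.

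The EIN2-like genes were closely matched. Phvul.007G150600, on chromosome 7 from 37134084 to 37142031, had 34.23 FPKM in Voyager and 30.00 FPKM in Albion, a difference of 0.18. Phvul.001G177500, on chromosome 1 from 44116444 to 44125962, had 31.21 FPKM in Voyager and 25.78 FPKM in Albion, a difference of 0.27. Unlike the NRAMP3-like and NRAMP6-like pairs, the EIN2-like genes were within 1.10 times of each other in Voyager and 1.16 times in Albion. They also had the longest gene models, spanning 7948 and 9519 bases, against 3639 to 5424 bases for the carriers. Together they reached 65.44 FPKM in Voyager and 55.78 FPKM in Albion.

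Summed over the 5 metal carriers, the level was 107.57 FPKM in Voyager and 108.74 FPKM in Albion, a ratio of 0.989. The NRAMP3-like gene Phvul.002G014300 made up 57.3% of this sum in Voyager and 56.0% in Albion. The NRAMP2-like gene followed with 21.5% in Voyager and 17.5% in Albion, and Phvul.010G160800 contributed 0.456% in Voyager and 2.17% in Albion. By count, 2 of the 5 carriers had the higher value in Voyager, as did both EIN2-like genes. The median difference of the carriers was -0.21, beside 0.07 over all listed genes, of which 61.9% had the higher value in Voyager.

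These small differences depend on how the genotypes are scaled. FPKM summed over all listed genes to 950155 in Voyager and 830694 in Albion. The highest value of a single gene was 59910.7 FPKM in Voyager and 13480.5 FPKM in Albion, so these sums can lean on very few genes. Scaling both sums to 1000000 moved the median difference of all genes by -0.17, to -0.11. With that scaling Phvul.002G014300 had -0.17 and Phvul.007G150600 had -0.0035, so both turned from the higher to the lower value in Voyager. The other 5 genes kept their direction but not their size. Phvul.001G177500 fell to 0.08 and Phvul.009G069700 to 0.09, while Phvul.009G127900 had -0.43, Phvul.003G238600 -0.39 and Phvul.010G160800 -1.34. Relative to the median of all genes, Phvul.002G014300 had -0.05, Phvul.001G177500 0.20, Phvul.009G069700 0.20 and Phvul.010G160800 -1.24. The direction of Phvul.002G014300 was the only one to turn in this comparison.

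**Figure D3:**
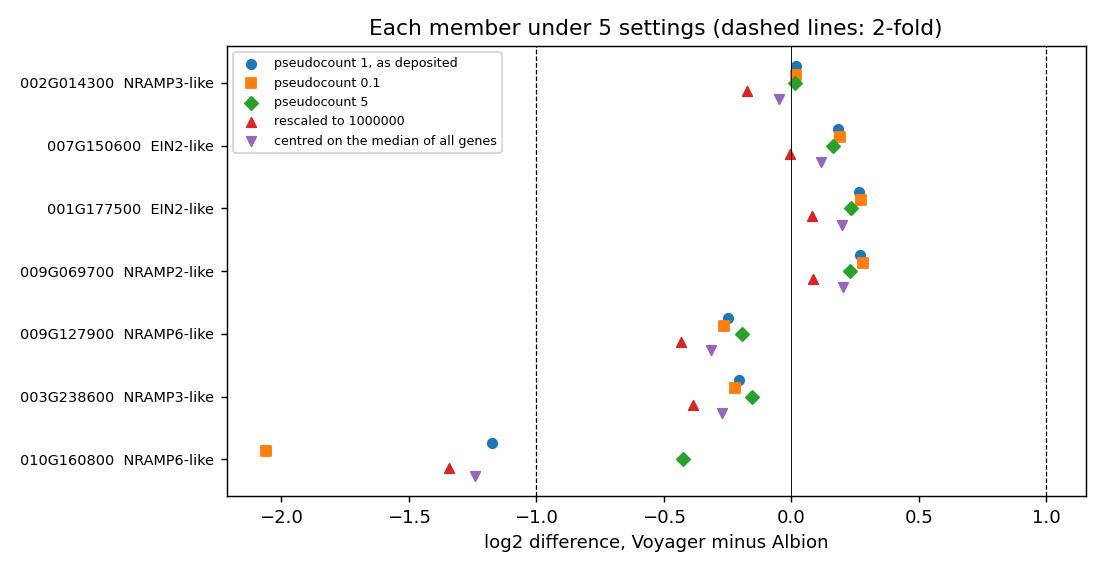
Log2 difference, Voyager minus Albion, of each NRAMP-family gene under 5 settings (pseudocounts of 1, 0.1 and 5 FPKM, scaling to the same summed FPKM, and centring on the median of all genes), with dashed lines at 2-fold. The 6 genes of at least 10 FPKM stay between -0.43 and 0.28, while Phvul.010G160800 ranges from -2.06 to -0.42.

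The 7 genes lay on 6 chromosomes, and none shared its position with another listed gene. Of the 14 nearest listed genes, 1 on each side of every member, 0 differed by 2-fold or more, beside 4.31% of all listed genes. For Phvul.010G160800 these were a cinnamoyl coa reductase 1 gene, an enzyme of lignin synthesis, with 1.08 FPKM in Voyager and 0.78 FPKM in Albion, and a CBL-interacting protein kinase 5 gene with 31.94 and 46.60 FPKM in Voyager and Albion. Neither of these neighbours reached 2-fold, and their differences were 0.22 and -0.53. The next listed gene after each NRAMP3-like gene was an auxin-responsive GH3 gene, of the family that joins auxin to amino acids. Beside Phvul.002G014300 it had 6.32 FPKM in Voyager and 11.06 FPKM in Albion, and beside Phvul.003G238600 it had 4.74 FPKM in Voyager and 2.89 FPKM in Albion. Only Phvul.003G238600 had a gene of another metal transport family within 1 Mb. This was the heavy metal ATPase 1 gene Phvul.003G240100, at 0.152 Mb, with 24.85 FPKM in Voyager and 25.74 FPKM in Albion.

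The neighbourhoods of members with a common homolog shared annotations for the NRAMP3-like and the EIN2-like genes, but not for the NRAMP6-like genes. Among the 10 listed genes on each side, the NRAMP3-like genes had 6 annotations in common, including arabinogalactan protein 18, the SRFR1 homolog and the HOS15 homolog. The EIN2-like genes had 5 in common, including adenosine kinase 2, RNA polymerase sigma-subunit F and phenylalanine ammonia lyase 1, the entry enzyme of phenylpropanoid synthesis. The NRAMP6-like genes had 0 in common, and the 18 pairs of members with different homologs had between 0 and 2. The HOS15 homolog was not particular to the NRAMP3-like pair. The NRAMP2-like gene shared it, and a subtilase, with each NRAMP3-like gene. The shared neighbours were close in level in some cases and far apart in others. The SRFR1 homolog had 12.58 FPKM in Voyager and 11.56 FPKM in Albion beside Phvul.002G014300, and 12.06 FPKM in Voyager and 11.32 FPKM in Albion beside Phvul.003G238600. Adenosine kinase 2 had 240.82 FPKM in Voyager and 225.27 FPKM in Albion beside Phvul.007G150600, and 44.36 FPKM in Voyager and 44.86 FPKM in Albion beside Phvul.001G177500. Arabinogalactan protein 18 had 46.14 FPKM in Voyager and 36.23 FPKM in Albion beside Phvul.002G014300, and 104.50 FPKM in Voyager and 145.49 FPKM in Albion beside Phvul.003G238600. Of the phenylalanine ammonia lyase genes near Phvul.001G177500, Phvul.001G177800 had 33.66 FPKM in Voyager and 12.75 FPKM in Albion, a difference of 1.33. The other, Phvul.001G177700, had 27.27 FPKM in Voyager and 15.51 FPKM in Albion, a difference of 0.78. No shared neighbour other than Phvul.001G177800 reached 2-fold, which 4.31% of all listed genes did.

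Other families that handle metals were placed beside the NRAMP carriers. By summed FPKM the 5 carriers were in place 9 of 13 families in each genotype, below the metallothioneins (small metal-binding proteins, 5153.85 FPKM in Voyager and 4297.76 FPKM in Albion) and below the ZIP zinc transporters (141.27 and 112.82 FPKM in Voyager and Albion). The sums cover the genes of these lists only. The paper reports further expressed members of some families, NRAMP among them, so the places hold for these lists alone. Of the 80 genes of these other lists, 2 were higher in Voyager by 2-fold or more and 1 was lower. Together this was 3.75% of the 80 genes, beside 4.31% of all listed genes. The 2 higher genes of these lists were the zinc induced facilitator-like 2 gene Phvul.002G108300 and the ZIP5-like zinc transporter Phvul.006G003300. The former had 19.35 FPKM in Voyager and 0.82 FPKM in Albion, and the latter had 7.90 and 1.66 FPKM in Voyager and Albion. The lower one was the zinc induced facilitator-like 1 gene Phvul.011G189900, with 8.11 FPKM in Voyager and 17.97 FPKM in Albion. The higher value was in Voyager for 60 of the 80 genes, or 75%, beside 61.9% of all listed genes. The median difference of the 80 genes was 0.15, beside 0.07 over all listed genes. On the deposited scale, the heavy metal ATPases and the ferroportin-like carriers were the other metal families with a median under 0. Both were at -0.05, beside -0.21 for the NRAMP carriers, and the ferroportin-like list held 2 genes, 1 in each direction. The sign of small family medians can depend on scaling. Scaling to the same summed FPKM moved the median of all genes by -0.17, and family medians were not recomputed on that scale. Among highly expressed genes of these lists, the iron store ferritin 4 (Phvul.008G221200) had 266.40 FPKM in Voyager and 138.12 FPKM in Albion, a difference of 0.94. OPT3, which moves iron in the phloem of A. thaliana, had 103.02 FPKM in Voyager and 85.27 FPKM in Albion. MTP11, a manganese carrier, had 99.76 FPKM in Voyager and 97.23 FPKM in Albion, and the vacuolar exchanger CAX1 (Phvul.008G104500) had 192.59 FPKM in Voyager and 193.70 FPKM in Albion.

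**Figure D4:**
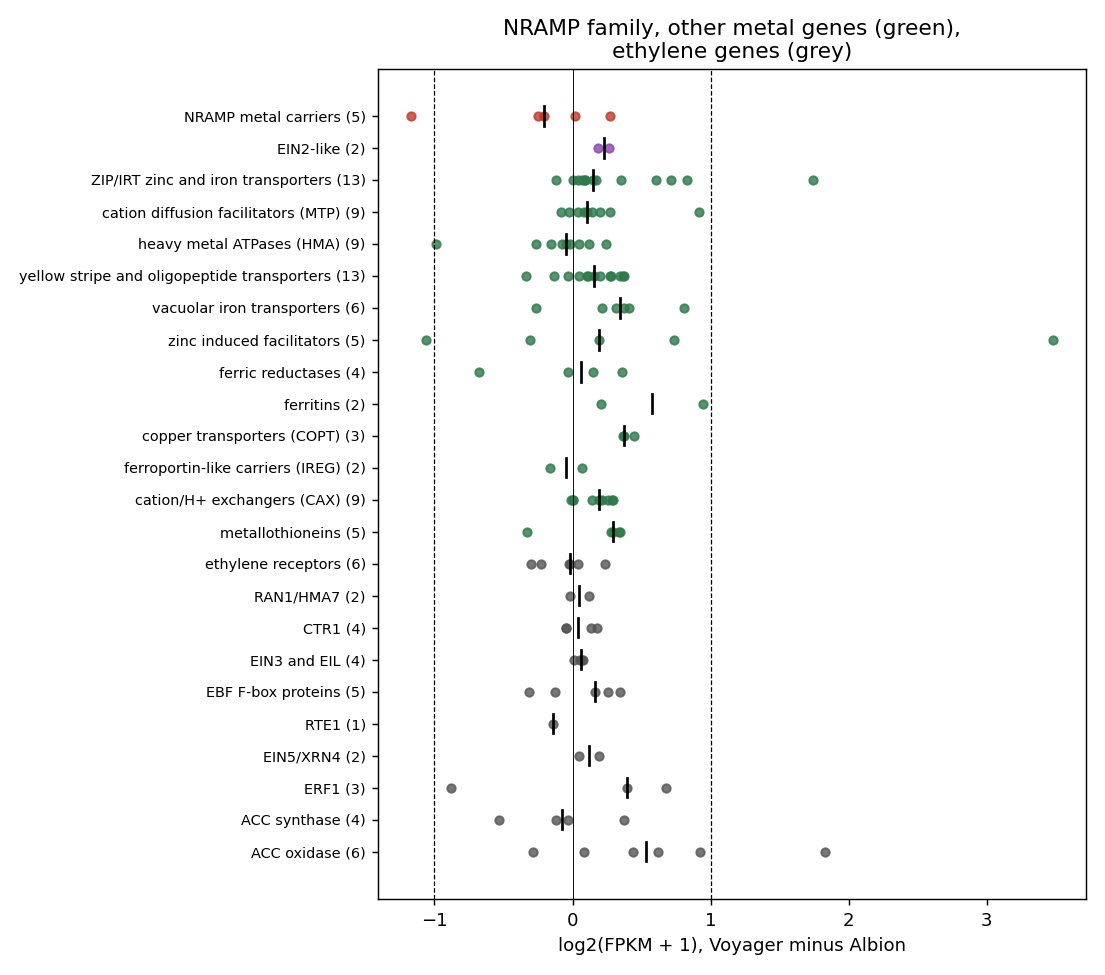
Difference in log2(FPKM + 1), Voyager minus Albion, of each gene (point) by family, with the median as a black bar and the number of genes in parentheses, for NRAMP carriers (red), EIN2-like genes (purple), other metal families (green) and the ethylene pathway (grey). The NRAMP carriers have a median of -0.21 and 1 gene past 2-fold (dashed lines), and the EIN2-like genes lie at 0.18 and 0.27.

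The EIN2-like genes were set beside the rest of the ethylene pathway, from receptors through the kinase CTR1 and EIN2 to the transcription factors EIN3 and EIL. Of 37 genes of this pathway 1 differed by 2-fold or more, which is 2.70% beside 4.31% of all listed genes. It was an ethylene-forming enzyme gene of low level (ACC oxidase, Phvul.008G213800), with 3.77 FPKM in Voyager and 0.34 FPKM in Albion. At the top of the pathway, the receptor gene ETR1 (Phvul.011G216400) had 215.91 FPKM in Voyager and 266.58 FPKM in Albion, a difference of -0.30. The copper carrier RAN1 (Phvul.009G241800), which supplies the receptors with their cofactor, had 35.49 FPKM in Voyager and 32.66 FPKM in Albion. CTR1, the kinase that holds EIN2 inactive in the absence of ethylene, was represented by 4 genes, the highest of which (Phvul.007G245500) had 33.39 FPKM in Voyager and 34.56 FPKM in Albion. The EIN2-like genes, at 31.21 and 34.23 FPKM in Voyager and 25.78 and 30.00 FPKM in Albion, lay close to or below this level. Below EIN2, the 4 EIN3 and EIL genes had differences of 0.01 to 0.08, with a highest level of 80.75 FPKM in Voyager and 80.09 FPKM in Albion for Phvul.006G011200. The F-box gene EBF1, whose product marks EIN3 for degradation, reached 140.93 FPKM in Voyager and 110.56 FPKM in Albion (Phvul.009G093200). On the deposited scale, the median difference of the pathway was 0.05, beside 0.18 and 0.27 for the EIN2-like genes. Scaling to the same summed FPKM brought the EIN2-like genes to -0.0035 and 0.08, and the pathway median was not recomputed on that scale.

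The pod label was compared with organ markers chosen by annotation. Photosynthesis genes of green tissue summed to 19161 FPKM in Voyager and 20082 FPKM in Albion. Genes of seed storage and late seed development, which included cupins, oleosins and late embryogenesis abundant proteins, summed to 16046 FPKM in Voyager and 13173 FPKM in Albion, and wall genes (laccases and fasciclin-like arabinogalactans) to 1735 FPKM in Voyager and 1659 FPKM in Albion. A single cupin gene (PAP85, Phvul.007G060000) supplied 7439.93 FPKM of the seed sum in Voyager and 5794.73 FPKM in Albion, and the median of the seed genes was 23.9 FPKM in Voyager and 24.2 FPKM in Albion. Of the 26 seed genes 0 differed by 2-fold or more, of the 80 green tissue genes 2 were higher and 2 lower in Voyager by that much, and of the 45 wall genes 5 were higher and 3 lower. These are 17.8% of the wall genes, whose median level was 2.97 FPKM in Voyager and 2.52 FPKM in Albion, and 5% of the green tissue genes, beside 4.31% of all listed genes. Markers of both the seed and green tissue were therefore abundant in both genotypes, and these lists do not separate pod wall from seed. The paper reports that developing seed made up a smaller part of pod weight in Voyager than in Albion. The part of tissue makeup in the NRAMP values was not tested.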

How the data were processed

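RNA of 3 Voyager and 3 Albion pod samples was sequenced by the authors, who aligned the filtered reads to the v1.0 bean genome with TopHat 1.4.1 and Bowtie 0.12.7, estimated abundance with Cufflinks 1.3.0 and compared the genotypes with Cuffdiff, per the labels and methods. The authors deposited FPKM rounded to 2 decimals, pooled into 1 value per gene and genotype, so values of single samples did not enter and no SD, interval or test is given. The alignments of single samples were not analysed here. Further deposited columns hold the authors' fold changes, test statistics, p-values, q-values and calls, and were not used. How Cufflinks shared reads between similar family members could affect their levels.

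Differences were computed as log2(FPKM + 1), Voyager minus Albion, and counted from 2-fold (1 on the log2 scale), with Python 3.11, numpy 2.4.6, pandas 2.3.3 and matplotlib 3.10.9. The counting rule was run on simulated data as a check of the code only. That check cannot show whether a counted gene truly differs, because the pooled FPKM values give no spread between samples. Lists were drawn by words and symbols of the deposited annotation and trimmed of matches from unrelated proteins after their values had been seen, so nothing was tested on them. Alternatives covered the pseudocount, the scaling, the fold and a filter on low values.

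Members and lists were chosen with earlier results of these data known. Genes named are all members, the nearest listed gene on each side, and, per list, the highest gene and those past 2-fold with a mean of at least 1 FPKM, of which not all are named individually. The shared neighbours and Phvul.001G177800 were added after their values were seen. The RefSeq table at hand matched 0 of the 7 identifiers, and no sequence is shown.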

Additional observations from a re-analysis of the deposited data

How the results depend on the processing

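No paired analysis was possible because the deposited table holds 1 pooled FPKM value per genotype, and for the same reason no sample could be left out. The summed FPKM of the metal carriers had a log2 ratio of -0.02, and -0.21 when scaled to the same total; without Phvul.002G014300 it was -0.06. The number of NRAMP-family genes past 2-fold was 1, and 0 with a pseudocount of 5 FPKM. For all listed genes the number of 845 became 1455 with a pseudocount of 0.1 FPKM, 314 with 5 FPKM and 2196 with a fold of 1.5. In the other metal and ethylene lists, 4 of 115 genes were past 2-fold, beside 4.31% of all listed genes. With a pseudocount of 0.1 FPKM it was 12 of 115, beside 1455 of all 19598 listed genes at that pseudocount. Of 28 recomputed differences of single members, 19 moved by at most 0.1 and 9 moved by more. Scaling to the same summed FPKM moved every member by more than 0.1. The member of lowest level also moved by more with pseudocounts of 0.1 and 5 FPKM. The 19 therefore came from changes of pseudocount and from centring on the median, and no member was stable to the scaling. The remaining alternatives kept their counts within 1.5 times. The pooled FPKM values give no spread between samples to set beside these differences.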
